A study of Mus musculus with 2 samples.

Results

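Genes of iron handling were followed through the cells of the mouse fetal liver: Trf, Tfrc, Steap3, Slc11a2, Slc25a37, Fth1, Ftl1, Slc40a1, Aco1 and Ireb2. The 10 genes were chosen by symbol among the 27998 genes listed, for their known roles in taking up, storing, exporting and sensing iron, and all 10 were found. A single liver of a wild-type C57BL/6 embryo at E12.5 had been dissociated, sorted to remove debris, dead cells and doublets, and run as 2 droplet libraries, here library 1 and library 2. These are technical replicates of 1 animal, so cells are not replicates, no test between cell types was possible, and the differences between the libraries measure technical spread alone. UMIs (unique molecular identifiers, each standing for 1 captured transcript) were summed over the cells of each deposited cell type in each library, and levels are given as CPM (UMIs of the gene scaled to 1000000 UMIs of that type) with exact Poisson 95% intervals that cover counting error only.

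The deposited names gave 9 cell types: haematopoietic stem and progenitor cells (HSPC), erythroid-committed progenitors (Ery), erythroblasts (Eryb), primitive erythroblasts (EryP), megakaryocytes (Mk), granulocytes (G), monocytes and Kupffer cells (Mo/KC), hepatoblasts (Hepa) and endothelial cells (EC). Library 1 held 5480 cells with a median of 6261 UMIs per cell and library 2 held 5057 cells with a median of 9774. The shallowest kept cell held 504 UMIs in library 1 and 4387 in library 2, so the libraries differ in which shallow cells they include. Eryb were the largest type, with 3820 and 3612 cells, and EC the smallest, with 20 and 26. Of 27 marker genes, 23 were highest in the type they mark in both libraries. The exceptions were Myb, higher in G than in HSPC, Gata1, higher in Mk than in Ery, and Klf1 and Car1, higher in Eryb than in Ery in library 1. The erythroid cells were further divided into Ery 1 to Ery 6, of which Ery 1 and Ery 2 made up Ery and Ery 3 to Ery 6 made up Eryb. Globin transcripts took 36.7% and 59.2% of all Eryb UMIs and 76.7% and 82.5% of all EryP UMIs, so every other gene had a smaller share of the total there. Erythroid levels are therefore also given with globin genes left out of the denominator. The libraries shared 31 cell barcodes.

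Iron travels in plasma bound to transferrin (Trf), which the liver parenchyma secretes. A cell that needs iron binds it through the transferrin receptor (Tfrc) and takes the complex into endosomes, where the reductase Steap3 converts ferric to ferrous iron and the transporter Slc11a2 carries it into the cytosol. In erythroid cells most of this iron goes to mitochondria through the importer mitoferrin 1 (Slc25a37) and is built into heme. Surplus iron is stored in a shell of ferritin heavy (Fth1) and light (Ftl1) chains or leaves the cell through ferroportin (Slc40a1), the only known iron exporter of mammals and the route by which macrophages return iron from digested red cells. The iron regulatory proteins encoded by Aco1 and Ireb2 bind iron-responsive elements, short hairpins in mRNA. When iron is scarce, they block translation where the hairpin lies in the 5′ untranslated region and stabilise the mRNA where it lies in the 3′ untranslated region. The fetal liver at this age is the main site where red cells are made.

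The hairpins are shown because, where found, they set apart members whose protein can change without their mRNA from those whose mRNA itself can respond. Members without a match are not placed by this division. GENCODE transcripts of mouse build GRCm38 were searched on the transcribed strand. The pattern was the loop CAGTGN with an unpaired C before an upper stem of 5 pairs, G with T allowed. Pairing below that C was not part of the search, so the printed flanks need not pair. Capitals mark the unpaired C and the loop.
Fth1 5′ UTR, chr19:9982732-9982760, plus strand: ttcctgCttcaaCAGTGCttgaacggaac
Ftl1 5′ UTR, chr7:45459779-45459807, minus strand: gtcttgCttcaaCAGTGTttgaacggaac
Slc40a1 5′ UTR, chr1:45925465-45925493, minus strand: caacttCagctaCAGTGTtagctaagttt
Tfrc 3′ UTR, chr16:32631219-32631247, plus strand: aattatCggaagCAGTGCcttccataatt
Tfrc 3′ UTR, chr16:32631598-32631626, plus strand: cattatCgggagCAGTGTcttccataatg
Tfrc 3′ UTR, chr16:32631663-32631691, plus strand: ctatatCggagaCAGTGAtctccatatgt
Tfrc 3′ UTR, chr16:32631710-32631738, plus strand: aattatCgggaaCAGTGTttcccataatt
Both ferritin chains and Slc40a1 carried 1 match each in the 5′ UTR, and Tfrc carried 4 in the 3′ UTR. A match stood in the 5′ UTR of 31 of 20597 genes (0.151%) and in the 3′ UTR of 129 of 20995 (0.614%), whereas the loop letters alone stood in 34.1% and 69.3%. No match was found in the annotated UTRs of the other 6 members, which says only that this pattern is not in these windows.

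**Figure D1:**
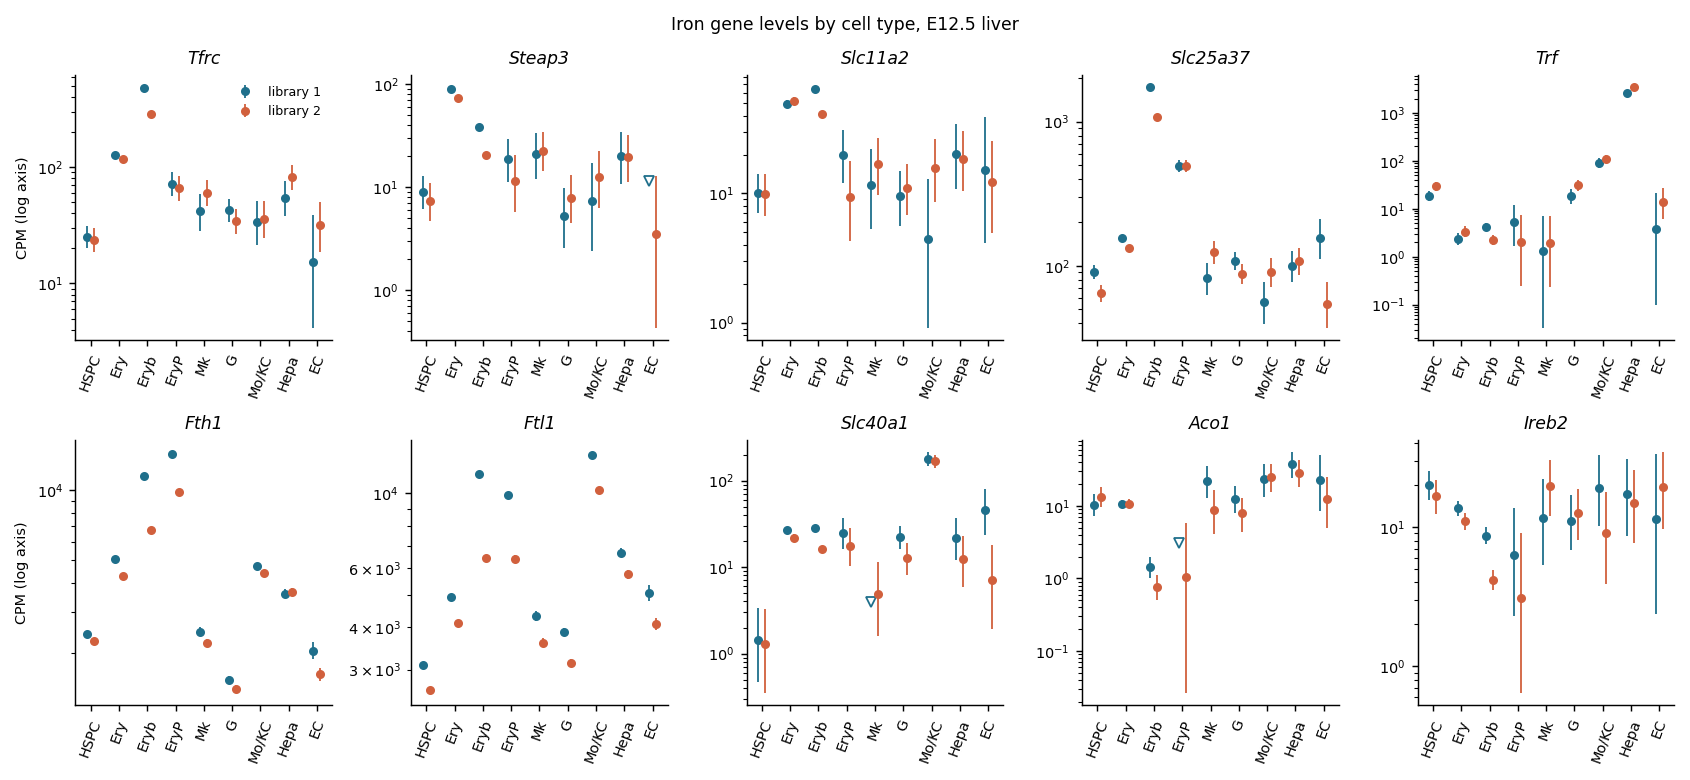
Level of the 10 genes in the 9 cell types, in CPM of all UMIs on a log axis, with 1 point per library and bars for the exact Poisson 95% interval; open triangles stand for 0 UMIs and are drawn at the level of 3 counts. Trf reached 2599 and 3422 CPM in Hepa, Tfrc and Slc25a37 were highest in Eryb, and Slc40a1 was highest in Mo/KC.

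Transferrin was a hepatoblast transcript. Trf stood at 2599 CPM in the Hepa cells of library 1 and 3422 in those of library 2, which was 50.4 and 89.4 UMIs per cell. Mo/KC followed at 91.4 and 110 CPM, then G at 18.5 and 31.1 and HSPC at 18.6 and 29.8, whose intervals overlapped. Every other type was between 1.30 and 14.1 CPM. Hepa thus exceeded HSPC by 140-fold (95% interval 109 to 183) in library 1 and 115-fold (93.5 to 143) in library 2. After each cell was thinned to 3600 UMIs, all 24 and all 31 Hepa cells deep enough to be thinned held a Trf UMI, whereas the share in Ery was 0.386% and 2.32%. The hepatoblast markers Alb, Afp and Apoa1 together stood at 40479 and 28931 CPM in Hepa. The same 3 markers summed to 25.0 and 21.5 CPM in Mo/KC, 22.3 and 13.4 in HSPC and 19.0 and 15.8 in G, each with all 3 markers above 0. In HSPC, G and Mo/KC, the Trf level was above what free RNA could give in both libraries, while the 1.30 and 1.97 CPM of Mk were not.

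The transferrin receptor was highest in Eryb, followed by Ery. Tfrc rose from 25.2 CPM in HSPC to 128 in Ery and 483 in Eryb in library 1, and from 23.7 to 117 and 285 in library 2. EryP held 72.0 and 66.3 CPM, and the intervals of Eryb and Ery were each apart from all other types in both libraries. Below these, neighbouring types in the order overlapped. On all UMIs the EryP interval overlapped those of Hepa, at 54.7 and 81.5 CPM, and Mk, at 41.6 and 60.1, in both libraries. The ratio of Ery to HSPC was 5.07 (4.09 to 6.35) and 4.93 (3.91 to 6.31), and that of Eryb to Ery was 3.78 (3.61 to 3.95) and 2.44 (2.33 to 2.56). Free RNA could give 19.8 and 14.6 CPM of the Tfrc level in HSPC and was not subtracted from the first ratio. With globin genes left out of the denominator the Eryb to Ery ratio was 5.84 and 5.69, so that the libraries lay closer together. Counted per cell, the receptor changed little from Ery, with 2.61 and 2.57 UMIs, to Eryb, with 3.07 and 2.80, since Ery cells held a median of 22587 and 23236.5 UMIs and Eryb cells 5613 and 8982.5. The share of cells with a Tfrc UMI at 3600 UMIs was 8.53% and 8.65% in HSPC, 33.1% and 30.1% in Ery and 77.0% and 58.7% in Eryb.

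Within the erythroid line, on all UMIs, Tfrc was highest in Ery 5 in library 1, close to Ery 4, and in Ery 4 in library 2. Its levels from Ery 1 to Ery 6 were 93.6, 165, 439, 558, 560.4 and 397 CPM in library 1. In library 2 they were 88.7, 147, 303, 343, 302 and 191 CPM. Ery 6 exceeded Ery 1 by 4.24-fold (3.93 to 4.58) and 2.15-fold (1.98 to 2.34), and by 10.0-fold and 9.77-fold without globin. On the scale of UMIs per cell the direction turned: Ery 1 held 2.46 and 2.30 Tfrc UMIs per cell, Ery 3 held 4.52 and 3.86, and Ery 6 held 1.85 and 1.61.

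Steap3 and Slc11a2, which pass endosomal iron to the cytosol, both came up from HSPC to Ery, as the receptor did, and then differed from each other. Steap3 was at 8.99 and 7.36 CPM in HSPC and 90.7 and 73.3 in Ery, a ratio of 10.1 (7.08 to 14.9) and 9.95 (6.60 to 15.8). The Steap3 level then fell to 38.6 and 20.4 CPM in Eryb, 2.35-fold (2.17 to 2.55) and 3.59-fold (3.27 to 3.93) below Ery. Without globin that fall was 1.52-fold and 1.54-fold, so its size depended on the denominator. From Ery 1 to Ery 6 Steap3 went from 85.9 to 11.2 CPM and from 72.4 to 4.54, a fall of 7.64-fold and 15.9-fold, or of 3.24-fold and 3.51-fold without globin. Ery was the highest type for Steap3 in both libraries, with an interval apart from the next.

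For Slc11a2 the order of the leading types differed between the libraries. HSPC held 10.1 and 9.92 CPM and Ery 49.3 and 51.9, 4.86-fold (3.47 to 7.01) and 5.23-fold (3.66 to 7.74) higher. Eryb stood above Ery in library 1, at 63.9 CPM, and below it in library 2, at 41.4 CPM, in both cases with separate intervals. With globin left out, Eryb was higher in both, at 101 and 102 CPM against 50.4 and 54.5. Counted per cell, Ery was instead the highest of all types in both libraries, at 1.01 and 1.14 Slc11a2 UMIs. The direction from Ery to Eryb thus depended on the scale. EryP were lower than Eryb by 3.22-fold and 4.44-fold, at 19.8 and 9.32 CPM.

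Mitoferrin 1 showed the steepest increase among the members from Ery to Eryb and from Ery 1 to Ery 6. Slc25a37 stood at 157 and 134 CPM in Ery, 1732 and 1076 in Eryb and 493 and 494 in EryP. HSPC held 90.2 and 64.6 CPM, of which free RNA could give 74.9 and 54.4. The ratio of Ery to HSPC, without subtraction of free RNA, was 1.74 and 2.07. The Eryb to Ery ratio was 11.0 (10.6 to 11.4) in library 1 and 8.04 (7.72 to 8.38) in library 2, and without globin 17 and 18.8. Per cell, Slc25a37 rose from 3.21 and 2.94 UMIs in Ery to 11.0 and 10.6 in Eryb. Through Ery 1 to Ery 6 its level was 82.2, 238, 900.4, 1819, 2279 and 2455 CPM in library 1 and 73.6, 198, 631, 1113, 1253 and 1297 in library 2, so no subcluster was below the one before it. The end-to-end ratio was 29.8 (27.8 to 32.1) and 17.6 (16.3 to 19.1). In Mo/KC and EC, at 56.0 and 90.4 and at 156 and 54.7 CPM, the level was not above what free erythroid RNA could give.

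**Figure D2:**
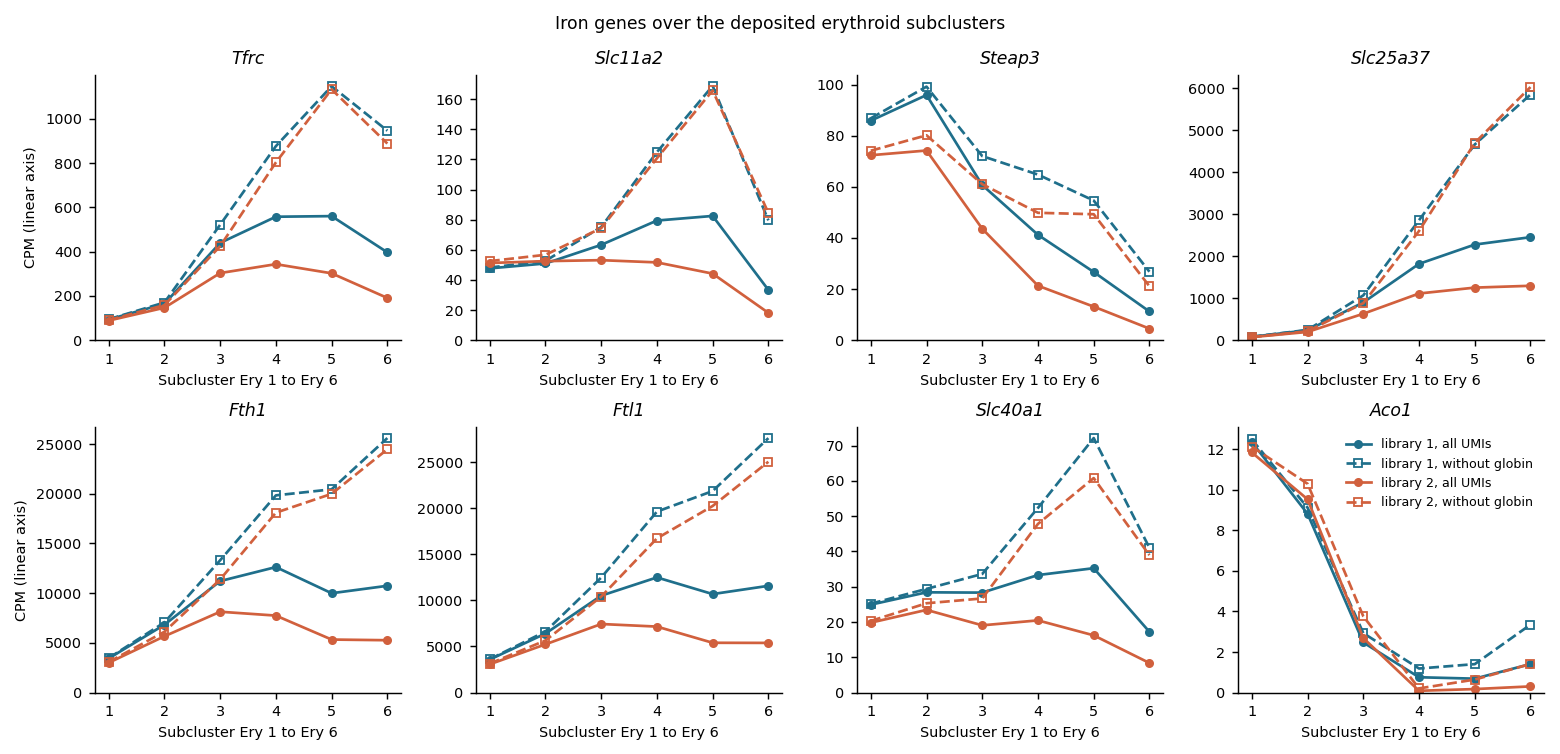
Level of 8 of the genes in Ery 1 to Ery 6, in CPM on a linear axis, with 1 colour per library. Solid lines use all UMIs and dashed lines leave globin genes out of the denominator. Tfrc went up to Ery 4 or Ery 5 and then down, Slc25a37 rose at every step, and Steap3 fell to 11.2 and 4.54 CPM in Ery 6.

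Cells of Ery and Eryb were also ordered by the share of their UMIs that came from 4 adult globin genes (Hbb-bt, Hbb-bs, Hba-a2 and Hba-a1), in 10 groups of equal size within each library, with those genes left out of the denominator. No member is a globin gene, and the deposited subcluster borders play no part in this order. The median globin share ran from 0.787% to 63.5% in library 1 and from 0.947% to 83.3% in library 2. Steap3 peaked in the second group, at 99.2 and 77.1 CPM, and ended at 14.9 and 13.3. Slc11a2 peaked in the seventh group, at 158 and 149 CPM, and fell to 47.5 and 76.3. Tfrc peaked in the eighth group of library 1 and the seventh of library 2, at 1027 and 1041 CPM, and ended at 723 and 579. Slc40a1 peaked in the eighth and the sixth group, at 66.1 and 57.4 CPM, and ended at 23 and 28.2. For Steap3, Slc11a2, Tfrc and Slc40a1 the interval at the peak overlapped that of a neighbouring group in both libraries, so the exact peak group is not settled. Slc25a37, both ferritin chains and Trf were highest in the last group. Trf rested there on 16 and 11 UMIs, 7.55 and 2.93 CPM of all UMIs. In free RNA Trf stood at 39.0 and 63.3 CPM, and the part of free RNA in erythroid cells was not tested. Slc25a37 went from 72.8 to 6284 CPM and from 54.0 to 6594, Fth1 from 3691 to 26516 and from 3427 to 26262, and Trf from 2.79 to 21.7 and from 3.38 to 18.2. Aco1 was highest in the first group, at 11.9 and 12.3 CPM, and ended at 4.07 and 1.66. When all UMIs were used as the denominator, none of the 10 members was highest past the eighth group in both libraries. On that scale Tfrc peaked in group 5 of both libraries. The peaks of library 1 and library 2 were in groups 7 and 3 for Slc11a2, 6 and 1 for Slc40a1, and 2 and 1 for Steap3.

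**Figure D3:**
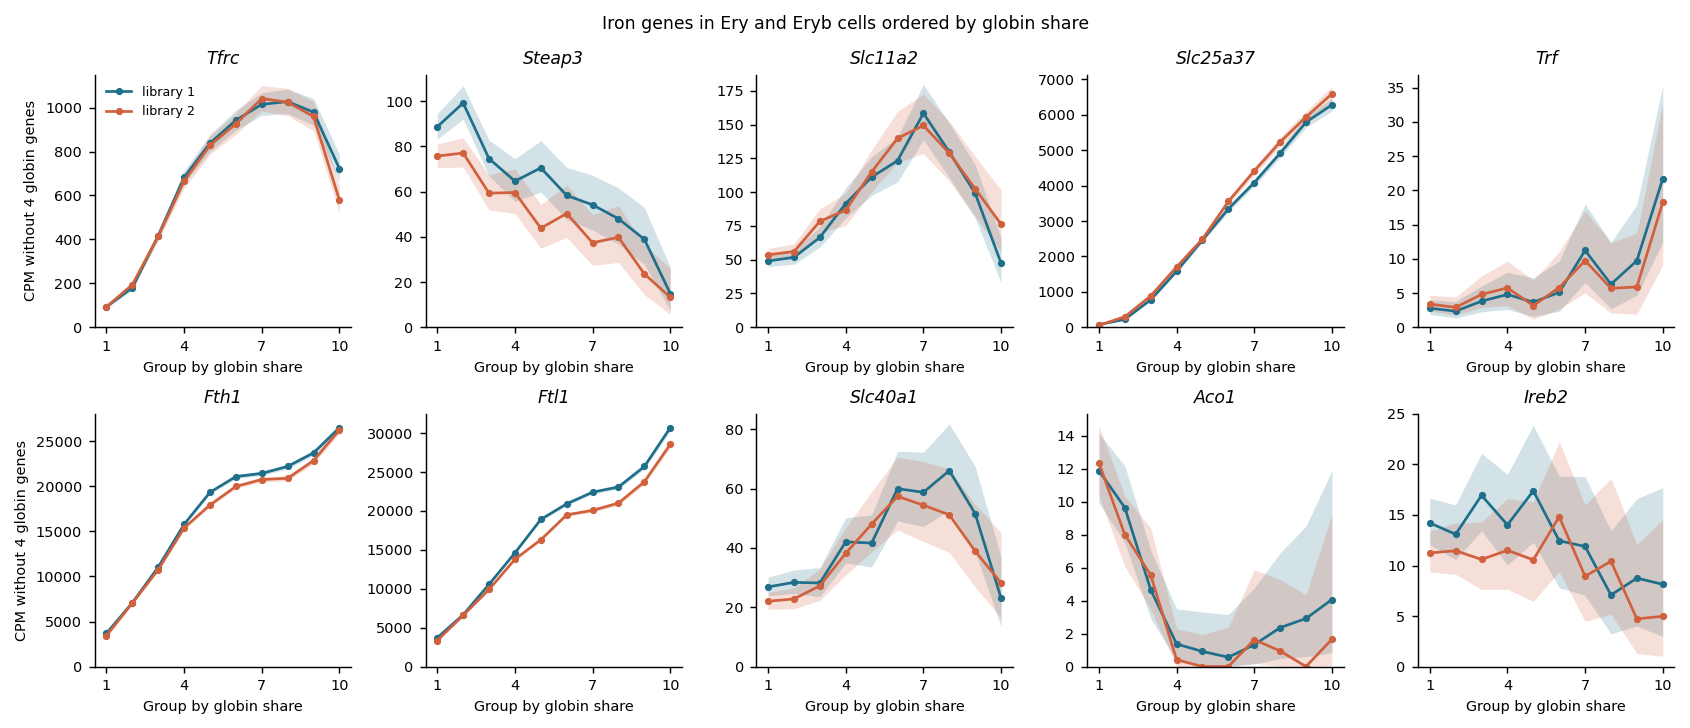
Level of the genes in 10 groups of Ery and Eryb cells ordered by their share of adult globin UMIs. The linear axis gives CPM without those globin genes, with bands for the exact Poisson 95% interval. Steap3 was highest in the second group, Slc11a2 and Tfrc in the seventh or eighth, and Slc25a37 in the last.

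Ferritin mRNA was abundant in every type and formed a separate pattern for each chain. Fth1 was highest in EryP, at 14303 and 9788 CPM, followed by Eryb at 11420.4 and 6743, with separate intervals in both libraries. Per cell another type was highest, Ery in library 1 with 104 UMIs and Hepa in library 2 with 95.4. On the CPM scale Ery held 5068 and 4287 CPM and HSPC 2418 and 2252. Ftl1 was highest in Mo/KC, at 13000.1 and 10244 CPM, above Eryb at 11430.5 and 6435 and EryP at 9910.05 and 6386. Eryb and EryP were apart for Ftl1 in library 1 and overlapped in library 2. Without globin, EryP became the highest type for Ftl1 as well, at 42506 and 36564 CPM against 18055 and 15776 in Eryb. The annotation held 14 other ferritin genes and pseudogenes for the chains together, of which 7 were listed in the files (6 of them Fthl17 genes). Their likeness to Fth1 and Ftl1 was not measured, reads could be shared with close copies, and the absolute ferritin levels are uncertain.

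From Ery to Eryb the ferritin chains moved together. Fth1 rose 2.25-fold and 1.57-fold and Ftl1 2.31-fold and 1.56-fold, or 3.48-fold and 3.67-fold and 3.58-fold and 3.65-fold without globin. Per cell both fell, Fth1 from 104 and 94.3 UMIs in Ery to 72.5 and 66.3 in Eryb, and Ftl1 from 101 and 90.5 to 72.6 and 63.2. In the subclusters Fth1 was 3433, 6825, 11216.8, 12626.8, 9993 and 10742 CPM from Ery 1 to Ery 6 in library 1, and 2997, 5663, 8131, 7745, 5333 and 5264 in library 2. On this scale the level was highest in Ery 4 or Ery 3. Without globin Fth1 rose through every subcluster, from 3470.3 and 3070.3 CPM in Ery 1 to 19844 and 18103 in Ery 4 and 25611 and 24478 in Ery 6.

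The balance of the chains differed between lineages. Reads shared with close copies of either gene were not measured, so the size of each ratio is uncertain. The intervals cover counting error only. Ery and Eryb held about as many Fth1 as Ftl1 UMIs, with 1.03 and 1.04 Fth1 UMIs per Ftl1 UMI in Ery and 0.999 and 1.05 in Eryb. EryP held 1.44 (1.41 to 1.48) and 1.53 (1.48 to 1.58). The 6 other types were all below 1 in both libraries. HSPC were the nearest to 1, at 0.783 and 0.863, and the lowest were Mo/KC in library 1, at 0.362, and EC in library 2, at 0.395, beside 0.429 in Mo/KC. Free RNA itself was rich in Fth1, at 10787 and 5601 CPM against 6082 and 4048 for Ftl1. After the largest free-RNA share was subtracted, Mo/KC stood at 0.326 and 0.393 and G at 0.198 and 0.303. EC went from 0.406 to 0.115 in library 1 and from 0.395 to 0.343 in library 2, so the size of the shift there differed between the libraries.

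**Figure D4:**
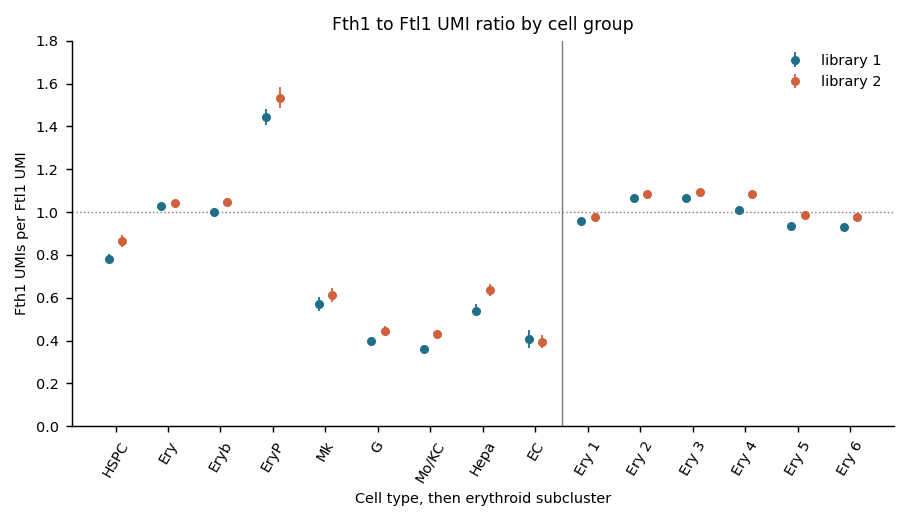
Fth1 UMIs per Ftl1 UMI in each cell type and in Ery 1 to Ery 6, 1 point per library, with exact 95% intervals for counting error. EryP lay at 1.44 and 1.53, Ery and Eryb near 1, and the 6 other types below 1.

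The exporter ferroportin was highest in the macrophage class. Slc40a1 stood at 180 and 167 CPM in Mo/KC, with an interval apart from all other types in both libraries. Ery, Eryb and EryP held a lower but clear level, between 16.1 and 28.2 CPM. This low level was not erythroid alone: G held 22.2 and 12.7 CPM and Hepa 21.9 and 12.3. Both overlapped Eryb and EryP and lay above what free RNA could give in both libraries. HSPC held 5 and 4 UMIs in all, 1.45 and 1.28 CPM, within the 2.04 and 1.28 CPM that free RNA could give there. The ratios of Mo/KC to HSPC, 124 (51.7 to 389) and 131 (49.9 to 486), and of Ery to HSPC, 18.4 (7.81 to 56.8) and 16.8 (6.53 to 62.1), are thus set against a level that free RNA alone could give. In Mk no UMI was found in library 1, which allows up to 3.90 CPM by the 3-count limit. EC gave 45.8 CPM on 12 UMIs in library 1 and 7.06 CPM on 4 UMIs in library 2, so its place in the order is not settled. The macrophage markers Fcgr1, C1qa and Csf1r together stood at 1195 and 738 CPM in Mo/KC, 1.99 and 0.445 in Ery, 1.40 and 0.395 in Eryb, and 19.1 and 0 in EC.

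Within Mo/KC the exporter lay in a minority of cells. At 3600 UMIs, 11 of 46 cells (23.9%, exact binomial interval 12.6 to 38.8) and 15 of 58 cells (25.9%, 15.3 to 39.0) held a Slc40a1 UMI, against 35.7% and 36.2% of cells without thinning. In HSPC the thinned shares were 1 of 211 cells (0.474%) and 0 of 208, a count that bounds only detection at this depth, at 1.44% of cells (4 of these cells held a UMI before thinning), at median depths of 16053 and 14956 UMIs in HSPC and 12888 and 15241.5 in Mo/KC. After these values were seen, the class was divided by C1qa, a complement gene of resident macrophages. The 21 and 15 cells with at least 2 C1qa UMIs held Slc40a1 at 608 CPM (504 to 729) and 726 CPM (609 to 859), and the other 35 and 43 cells at 8.25 and 17.2 CPM. The C1qa cells were also higher in Ftl1, at 24382 and 21490.1 against 8446 and 7228 CPM, in Fth1, at 11110.8 and 12379 against 2141 and 2252, and in Trf, at 222 and 347 against 39.2 and 45.8. Hbb-bs was lower in the C1qa cells, at 3588 and 13971 CPM against 5195 and 15646, and their median depth was lower, at 8004 and 10870 UMIs against 13282 and 16770.

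Transcripts of Aco1 and Ireb2, which encode the iron regulatory proteins, were scarce throughout. Aco1 was highest in Hepa, at 37.5 and 28.4 CPM, but this interval overlapped that of Mo/KC at 23.6 and 24.8. Ery and HSPC held like levels, 10.7 in both libraries and 10.4 and 13.4. Aco1 then fell in Eryb to 1.44 and 0.761 CPM, 7.38-fold (5.14 to 10.9) and 14.1-fold (9.40 to 21.9) below Ery, and by 4.78-fold and 6.04-fold without globin. Ery 6 held 8 Aco1 UMIs in library 1 and 3 in library 2 against 122 and 110 in Ery 1, a fall of 8.79-fold and 39.1-fold (13 to 193 in library 2), or of 3.73-fold and 8.62-fold without globin. In EryP there were 0 and 1 Aco1 UMIs.

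For Ireb2 all neighbours in the order of types overlapped in both libraries. It was at 20.01 and 16.6 CPM in HSPC, 13.6 and 11.1 in Ery, 8.70 and 4.20 in Eryb and 6.26 and 3.11 in EryP. The Eryb to Ery fall was 1.57-fold and 2.63-fold, and from Ery 1 to Ery 6 it was 4.06-fold and 7.47-fold. Without globin these were 1.01-fold and 1.13-fold, and 1.72-fold and 1.65-fold, so neither reached 2-fold on that scale.

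The members were next counted against all genes. A gene was called higher or lower when it was at least 2-fold apart in the same direction in both libraries, among genes with at least 50 UMIs over the compared types in each library. From HSPC to Ery, 4 of 10 members were higher (Tfrc, Steap3, Slc11a2 and Slc40a1), where 6.84% of 8992 genes were, and 1 was lower (Trf, by 7.86-fold and 8.92-fold), where 15% of genes were. The median log2 ratio was 0.96 for the members and -0.08 for all genes tested. Free RNA was not subtracted from these ratios. In HSPC it could give 19.8 and 14.6 of the 25.2 and 23.7 CPM of Tfrc. For Slc25a37, not called at 1.74-fold and 2.07-fold, free RNA could give 74.9 and 54.4 of 90.2 and 64.6 CPM. Its possible part was smaller for Steap3, 3.27 and 1.83 of 8.99 and 7.36 CPM, and Slc11a2, 3.08 and 2.67 of 10.1 and 9.92.

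From Ery to Eryb, 2 of 10 members were higher (Tfrc and Slc25a37), where 4.8% of 9003 genes were, and 2 were lower (Steap3 and Aco1), where 53% were. In library 1 alone 4 were higher, since Fth1 and Ftl1 passed 2-fold there, and the share of all genes in that library alone was not computed. The median log2 ratio of all genes was -1.38 and that of the members 0.08. Leaving globin out of the denominator raised these medians to -0.46 and 1.005. On that scale 4 members were higher (Tfrc, Slc25a37, Fth1 and Ftl1), where 12.8% of genes were, and 1 was lower (Aco1), where 30% were.

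From Ery 1 to Ery 6, which shares its cells with the comparison of Ery and Eryb, 2 members were higher (Tfrc and Slc25a37), where 4.95% of 7811 genes were, and 3 were lower (Steap3, Aco1 and Ireb2), where 77.3% were. Library 1 alone gave 4 higher and library 2 alone 5 lower. The share of all genes for these single-library counts was not computed. The median log2 ratio of all genes was -2.58 in library 1 and -3.50 in library 2. Without globin 5 were higher (Fth1, Ftl1 and Trf in addition), where 14.4% of genes were, and 2 were lower, where 53.5% were. Trf rose there by 4.09-fold and 3.32-fold on that scale, and the hepatoblast markers summed to 21.1 and 12.49 CPM of all UMIs in Ery 1 and 45.0 and 16.3 in Ery 6. Their part in that rise was not tested.

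**Figure D5:**
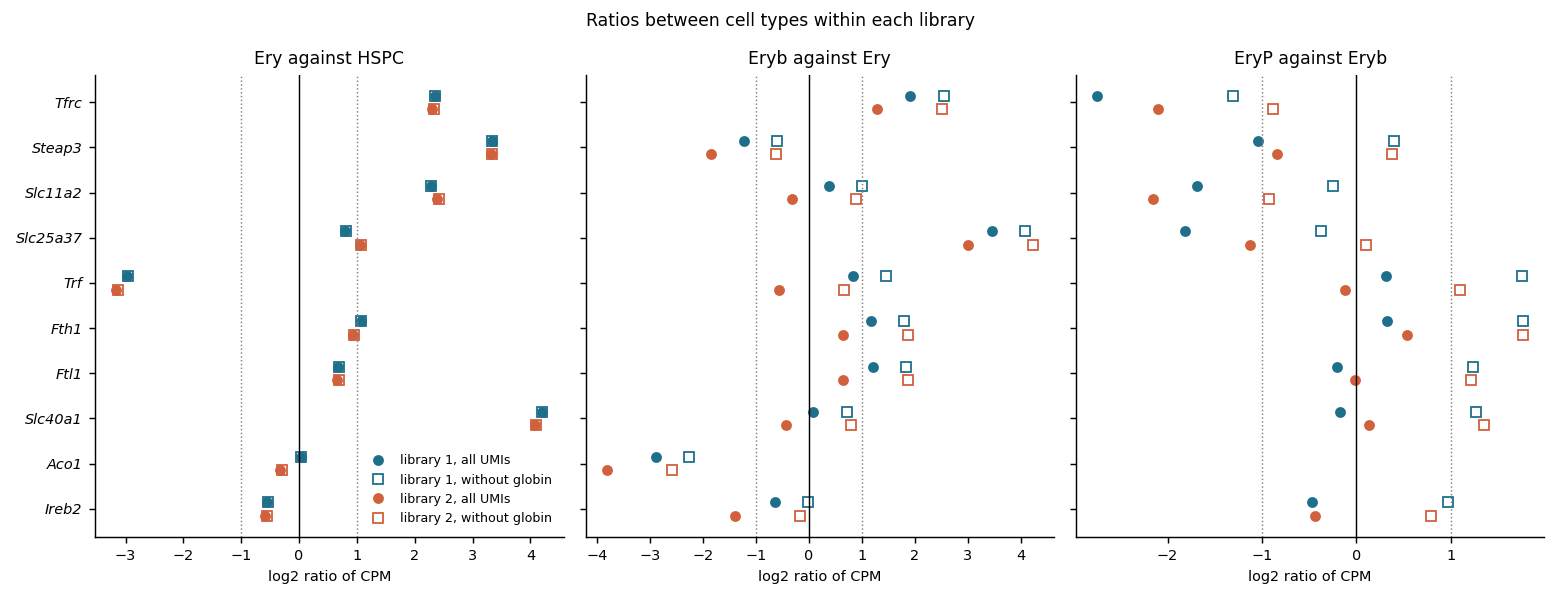
log2 ratio of each gene between Ery and HSPC, Eryb and Ery, and EryP and Eryb, with 1 colour per library and no intervals drawn. Filled points use all UMIs, open points leave globin genes out of the denominator, and dotted lines mark 2-fold. Slc25a37 had the highest Eryb to Ery ratios, 11.0 and 8.04, and Fth1 the highest EryP to Eryb ratios on all UMIs, 1.25 and 1.45.

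Primitive and definitive erythroblasts were compared next, and most of the differences depended on the denominator. The paper describes EryP as orthochromatic, a late stage, whereas Eryb pools Ery 3 to Ery 6. Lineage and stage therefore cannot be told apart here. In Ery 6 Tfrc stood at 397 and 191 CPM and Slc25a37 at 2455 and 1297, against 72.0 and 66.3 and 493 and 494 in EryP. Slc11a2 stood at 33.4 and 18.2 CPM in Ery 6 and 19.8 and 9.32 in EryP. Steap3 stood at 11.2 and 4.54 CPM in Ery 6 and 18.8 and 11.4 in EryP. The Fth1 level of EryP was 1.25-fold and 1.45-fold that of Eryb. Of 9 members tested, 0 were higher in EryP than in Eryb, where 1.14% of 7275 genes were, and 3 were lower, a smaller share than the 53% of all genes. The lower members were Tfrc, by 6.70-fold (5.29 to 8.62) and 4.30-fold (3.36 to 5.58), Slc11a2, by 3.22-fold and 4.44-fold, and Slc25a37, by 3.52-fold (3.21 to 3.86) and 2.18-fold (1.99 to 2.39). Without globin, 4 members were higher, where 10.2% of genes were, and 0 were lower, where 11% were. These were Fth1 (3.40-fold and 3.39-fold), Ftl1 (2.35-fold and 2.32-fold), Slc40a1 (2.41-fold and 2.56-fold) and Trf, which rested on 5 and 2 UMIs in EryP. Tfrc on that scale was 2.47-fold and 1.84-fold lower in EryP and Slc11a2 1.19-fold and 1.90-fold lower. Steap3 was 1.32-fold and 1.30-fold higher, and Slc25a37 was 1.29-fold lower in library 1 and 1.07-fold higher in library 2.

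In Mo/KC against HSPC, 3 of 8 members tested were higher (Slc40a1, Trf and Ftl1), where 6.54% of 6236 genes were, and none was lower, where 7.15% were. Ftl1 was 4.21-fold and 3.92-fold higher and Trf 4.92-fold and 3.68-fold. In Hepa against HSPC, 4 of 7 were higher (Trf, Tfrc, Ftl1 and Aco1), where 6.5% of 6172 genes were, and none was lower, where 17.3% were. Tfrc was 2.17-fold and 3.44-fold higher in Hepa, Ftl1 2.16-fold and 2.20-fold, and Aco1 3.59-fold and 2.11-fold.

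Levels of the members differed between the libraries in the erythroblasts. In Eryb all 10 members were at least 1.5-fold lower in library 2 than in library 1, as were 69.8% of all genes. In Ery 4, Ery 5 and Ery 6 the same held for 9 of 9, 7 of 7 and 8 of 8 members tested, beside 56.3%, 84.1% and 91.6% of all genes. In Ery it held for 0 of 10 members and 3.56% of genes. In EryP, whose globin share was the highest, it held for 1 of 4 members tested (Ftl1), where 29.7% of genes were lower. With globin left out of the denominator, 0 members were lower by that fold in Eryb, where 3.7% of genes were, or in Ery 4, Ery 5 and Ery 6, where 4.01%, 3.86% and 4.59% were.

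The level of free RNA was read from droplets of 1 to 50 UMIs, and its largest possible share in each non-erythroid type was taken from the erythroid transcript Hbb-bs. That share was 5.33% to 14.6% across types in library 1 and 5.06% to 12.6% in library 2. Of 60 pairs of a member and a non-erythroid type, 46 lay above the level this allows in both libraries. The share of all genes above that level was not computed, so this count cannot be set against all genes. Tfrc in free RNA stood at 261 and 221 CPM and Slc25a37 at 987 and 821, so the low levels of erythroid members in small types carry this background.

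Beside the 10 members, a list of 46 other iron genes was read, of which 42 were in the files. From HSPC to Ery, 8 of 23 tested were higher and 1 was lower, beside 6.84% and 15% of all genes. Tfr2, the second transferrin receptor, stood at 3.19 and 5.12 CPM in HSPC and 36.8 and 35.5 in Ery, and Slc39a8, a metal importer, at 7.25 and 9.28 and at 113 and 91.2. From Ery to Eryb, 3 of 24 were higher and 6 were lower, beside 4.8% and 53% of all genes. Without globin, an alternative added after the data were seen, 8 were higher and 0 lower, beside 12.8% and 30%. The genes higher on all UMIs were Abcg2, a transporter of heme and porphyrins, from 111 and 104 to 544 and 336 CPM, Abcb10, a mitochondrial transporter that binds Slc25a37, from 78.2 and 69.3 to 298 and 179, and Ncoa4, the receptor for ferritin breakdown, from 3.36 and 3.89 to 17.3 and 9.13. Among the genes lower on all UMIs alone were Pcbp1, a chaperone that loads iron into ferritin, from 753 and 607 to 349 and 188 CPM, its relative Pcbp2, from 593 and 487 to 281 and 158, and Fbxl5, which targets Ireb2 protein for degradation, from 16.3 and 13.1 to 5.40 and 3.44.

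From Ery 1 to Ery 6, 3 of 21 listed genes were higher and 9 lower, beside 4.95% and 77.3% of all genes. Without globin 8 were higher and 4 lower, beside 14.4% and 53.5% of all genes. From Eryb to EryP, 0 of 24 were higher and 11 lower, beside 1.14% and 53%. Without globin 7 were higher and 2 lower, beside 10.2% and 11%. Of the 10 genes for mitochondrial iron and iron-sulfur clusters, 7 were lower in EryP on all UMIs, near the share of all genes, and 1 was higher and 1 lower without globin. On all UMIs they included Isca2, by 9.19-fold and 7.81-fold, and Glrx5, by 2.48-fold and 2.34-fold. Transcripts of proteins that bind iron or heme outside cells were highest outside the erythroid line. Hpx, which carries heme, was in Hepa at 434 and 299 CPM, Ltf and Lcn2 were in G at 2928 and 1447 and at 3609.9 and 2552, and Hp, which carries haemoglobin, was in G at 1202 and 964 and in Mo/KC at 581 and 550. Hamp, the hormone that removes ferroportin from the membrane, had 2 and 0 UMIs in all cells together. In Mo/KC against HSPC 1 of 15 listed genes was higher and 1 lower, beside 6.54% and 7.15% of all genes, and in Hepa 3 of 16 were higher and 0 lower, beside 6.5% and 17.3%.

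Likeness between genes was read as Pearson's r of log2(CPM + 10) over 13 cell groups in both libraries, 26 points that share their libraries, depth and free RNA. Genes with at least 50 CPM in a group in each library were compared, 4420 in all. Slc25a37 was most like Samd11 (r = 0.989), Slc4a1, the anion exchanger of red cells (0.984), and Alas2, the first enzyme of erythroid heme synthesis (0.982). Tfrc was most like Ankrd9 (0.975) and Nxpe2 (0.973). Slc11a2 lay nearest to Klf1, an erythroid transcription factor (0.949), Slc25a38, a mitochondrial glycine carrier (0.929), and Slc38a5 (0.928). Steap3 lay nearest to Tango2 (0.929), Rmdn3 (0.925) and Atp1b2 (0.908).

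The nearest genes to Fth1 were Slc6a9, a glycine transporter (0.891), Mgst3 (0.878) and Plek2 (0.870). Those to Ftl1 were the lysosomal protease Ctsb (0.868), Fth1 (0.799) and Kdm7a (0.769). Slc40a1 was nearest to the macrophage genes Ifi30 (0.856), C1qa (0.805) and Aif1 (0.803), and Trf to Aldh1b1 (0.962), Serpinf1 (0.956) and Tcea3 (0.952). Aco1 and Ireb2 did not reach 50 CPM themselves, and were nearest to Acly (0.947) and Bptf (0.927). Among the members, Tfrc was like Slc25a37 (0.875) and Slc11a2 (0.856), and Aco1 ran opposite to Slc25a37 (-0.84).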

How the data were processed

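The authors sequenced both libraries of 1 liver and deposited UMI counts per gene and barcode, with a table naming each kept cell. The submitters' processing notes name bcl2fastq 2, Cell Ranger 2.1.1, Seurat 3.2.0 and build mm10. The study's methods state annotation GRCm38.92, a filter of at least 200 genes per cell and clusters named by hand from markers. Of 5764 and 5057 called barcodes, 5480 and 5057 hold at least 200 genes, which equals the kept cells. Kept cells held 51969226 and 62738015 UMIs. The label HPSC in the deposited table was read as HSPC.

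Counts were summed per type and library and divided by all UMIs (CPM). Intervals are exact Poisson for levels, conditional binomial for ratios and Clopper-Pearson for shares, at 95%. A count of 0 was set to 3 counts in ratios. Doublets in the cell suspension had been removed by sorting, and no caller was applied except in alternatives. The sort came before the droplet step, so doublets formed in droplets may remain. Elements were searched in GENCODE UTRs on GRCm38. The tools were scanpy 1.11.5, matplotlib 3.10.9, scipy 1.17.1, pandas 2.3.3 and numpy 2.4.6 under Python 3.11.15, and the fold rule was tested on simulated data.

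The members and gene lists were chosen with earlier results of these data known. Named genes are the 10 members, up to 3 most alike genes for each, the fixed iron list and the markers. One gene alike to a member is not reported here.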

Additional observations from a re-analysis of the deposited data

Results flagged for a closer look

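Barcodes that were not called as cells but held at least 1000 UMIs and 200 genes belong to no comparison above. There were 168 such barcodes in library 1 and 3311 in library 2. Several members stood there above their level in free RNA, taken from barcodes with 1 to 50 UMIs. In library 1 these were Tfrc at 584 CPM against 261, Slc25a37 at 1733 against 987, Fth1 at 11632 against 10787 and Ftl1 at 11541 against 6082. In library 2 these were Trf at 101 CPM against 63.3, Ftl1 at 5044 against 4048 and Slc40a1 at 32.5 against 19.4. In library 2 the erythroid members lay below free RNA instead, Tfrc at 179 against 221, Slc25a37 at 492 against 821 and Fth1 at 5098 against 5601. Whether these barcodes are cells was not tested.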

How the results depend on the processing

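No paired analysis was possible because the 2 libraries form 1 group and no result comes from a test. Of the counts recomputed under an alternative, 162 stayed within 1.5 times the reported count and 33 did not. The values of single members were less stable: 119 of 400 log2 ratios moved by more than the spread between the libraries, as did 19 of 90 levels. Among the ratios that moved were 31 of 40 without globin and 34 of 40 per cell. The totals include 40 log2 ratios and 10 levels for each library left out. These could not move by that rule, because each of 2 libraries always lies within their spread of the mean. From Ery to Eryb the number of members higher was 2, and 4 without globin, without globin, mitochondrial and ribosomal genes, or at 1.5-fold, and 1 per cell or at 3-fold. The number lower was 2, and 1 without globin, also without mitochondrial and ribosomal genes, with at least 1000 genes and under 10% mitochondrial UMIs, or at 3-fold, and 5 per cell. From Ery 1 to Ery 6 the number higher was 2, and 5 without globin on either denominator, 4 at 1.5-fold and 1 per cell or at 3-fold. The number lower was 3, and 6 per cell. From HSPC to Ery it was 4 higher, and 7 per cell or at 1.5-fold. From Eryb to EryP it was 0 higher and 3 lower, and 4 higher and 0 lower without globin on either denominator, and 1 higher with at least 1000 genes. In Mo/KC it was 3 higher, and 5 as a mean over cells or at 1.5-fold, and in Hepa 4 higher, and 2 as a mean over cells or without the 4% of cells with the most UMIs, and 1 at 3-fold. With 1 library left out, the counts ran from 2 to 4 higher and 2 to 3 lower from Ery to Eryb, 2 to 4 and 3 to 5 from Ery 1 to Ery 6, 5 higher and 1 lower from HSPC to Ery, 3 to 4 lower in EryP, and 3 to 4 higher in Mo/KC. The counts of 4 higher came from library 1 alone and the 5 lower from library 2 alone. Only the counts of the reported rule and those without globin alone have a share of all genes beside them above. For the other counts that share was not computed, so they cannot be set against all genes. Tfrc from Ery 1 to Ery 6 reversed per cell, at a log2 ratio of -0.46. Of the members, 4 were highest past 0.8 of the globin order, and 0 with all UMIs as denominator. The 10 members lower in library 2 in Eryb became 0 without globin, an alternative added after the data were seen, as were the counts without globin, mitochondrial and ribosomal genes or per cell. The planned protein comparison of ferritin chains and of Aco1 with Ireb2 was not run. Types of 20 to 58 cells limit Mo/KC, Hepa and EC.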
